A study of Homo sapiens with 32 samples.

Results

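The transcripts of 10 genes that act in negative feedback on the extracellular signal-regulated kinase (ERK) pathway, or that mark its output, were followed in cannabidiol (CBD)-treated neuroblastoma cells. They were picked by gene name, with earlier results of these data known. All 10 were found among the 22610 entries of the expression table: DUSP4, DUSP5 and DUSP6 (dual-specificity phosphatases), SPRY1, SPRY2 and SPRY4 (Sprouty proteins), SPRED1 and SPRED2 (Sprouty-related proteins), and ETV4 and ETV5 (ETS transcription factors). Of these, 9 had a mean of at least 1 FPKM (fragments per kilobase and per unit of sequencing depth, a level scaled for transcript length and for the mapped reads of the sample) over all samples and were tested with 12612 other genes, and SPRY1 fell below that limit.

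SK-N-BE(2) is an established human neuroblastoma cell line with an amplified MYCN gene. Cells were exposed to 20 µM CBD dissolved in ethanol, or to vehicle with 0.1% ethanol alone, and polyA RNA was sequenced after 3, 6, 12 and 24 h. Each of the 8 groups held 4 replicates, giving 32 samples in all, and every treatment time had its own vehicle group. The replicates were prepared in quadruplicate, and nothing in the sources used here says whether they came from separate passages of the line, so that p-values measure the spread between these samples.

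ERK is the last kinase of a relay that runs from receptor tyrosine kinases through RAS, RAF and MEK, and it drives growth, survival and differentiation in neural crest-derived cells. Active ERK switches on the genes of its own inhibitors. Dual-specificity phosphatases remove the activating phosphates from ERK, DUSP6 in the cytoplasm and DUSP4 and DUSP5 in the nucleus, whereas Sprouty and Spred proteins act further upstream, at the level of RAS and RAF. ETV4 and ETV5 are transcription factors of the PEA3 group whose transcription is a common readout of fibroblast growth factor and ERK signalling. Transcript levels were measured here, and neither ERK phosphorylation nor the proteins were analysed.

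The promoters of the members are shown to let the sequence stand beside the values that follow. RefSeq promoter windows on GRCh38.p14 were matched for 6 of the 10 genes (DUSP6, SPRY1, SPRY2, SPRY4, SPRED1 and SPRED2; 10 windows in all), and the 250 bases before each start were searched on both strands for AGGAAG and CCGGAA, which carry the GGAA core bound by ETS factors, TGACG, which is bound by ATF and CREB factors, TGANTCA, the AP-1 site, and the CArG box of serum response factor. AGGAAG was found in 8 of the 10 windows and in 5 of the 6 genes, against 28.7% of 35116 promoters. CCGGAA was found in 2 windows (14.5% of all promoters) and TGACG in 2 (21.2%), and no window held TGANTCA (6.57%) or a CArG box (1.16%). DUSP6 and SPRY2 are printed as genes that were higher with CBD, and SPRED2 as the gene that did not pass the test at any time. SPRY4, the member with the largest F, is printed only as the stretch around its single match. That stretch lies in exon sequence. Of the 250 bases of SPRY4, 170 lie in exons of protein-coding genes, and the 80 bases outside them held no match. The same sequence on GRCh37 (chr5:141703813-141704062) lies within the annotated SPRY4 gene. All 250 bases of the DUSP6 window lie in annotated exons as well, none of them of a protein-coding gene. Motif matches are in capitals, and CTTCCT is AGGAAG read on the other strand. The windows run 5′ to 3′ and lie on the minus strand at chr12:89352502-89352751 (DUSP6), chr13:80341127-80341376 (SPRY2), chr2:65432638-65432849 (SPRED2, 212 bases, without 38 bases in an exon of a protein-coding gene that hold 1 more AGGAAG) and chr5:142324299-142324327 (SPRY4, 29 bases, 80 to 52 bases before the start).
DUSP6 promoter: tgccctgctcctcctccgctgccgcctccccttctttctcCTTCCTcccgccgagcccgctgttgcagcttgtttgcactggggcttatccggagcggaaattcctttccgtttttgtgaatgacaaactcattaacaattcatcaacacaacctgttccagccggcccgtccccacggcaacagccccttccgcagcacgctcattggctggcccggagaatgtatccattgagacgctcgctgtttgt
SPRY2 promoter: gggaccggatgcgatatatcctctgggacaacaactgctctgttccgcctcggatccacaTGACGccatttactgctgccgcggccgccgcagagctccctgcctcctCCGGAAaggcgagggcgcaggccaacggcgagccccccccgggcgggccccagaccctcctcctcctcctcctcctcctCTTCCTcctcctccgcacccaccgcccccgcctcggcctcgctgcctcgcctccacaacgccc
SPRED2 promoter: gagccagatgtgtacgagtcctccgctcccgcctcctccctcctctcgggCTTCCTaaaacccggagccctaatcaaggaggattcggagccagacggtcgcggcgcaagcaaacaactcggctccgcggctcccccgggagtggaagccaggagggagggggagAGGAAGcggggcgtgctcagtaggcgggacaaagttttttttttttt
SPRY4 stretch: tcttcggagccgTGACGgactgaattccc
A match describes letters only. AGGAAG stood in the window of SPRED2, which did not pass the test at any time, as well as in those of DUSP6 and SPRY2, which did.

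Replicates of a group had a Pearson correlation of 0.949 to 0.966 across genes, no pair of samples was identical, and relative depth, estimated from the lowest values of 1414 rarely detected genes, ranged from 0.794 to 1.20. All 10 markers of adrenergic neuroblastoma cells were at or above 1 FPKM on average (summed 3267 to 3616 FPKM in vehicle and 3461 to 4091 in CBD samples). MYCN was the largest part of these sums (1762 FPKM on average), whereas the median log2 fold change of the 10 markers was -0.18 at 24 h. Also at or above 1 FPKM were 5 of 10 mesenchymal markers, 1 of the 6 keratinocyte markers found (KRT10) and 0 of the 7 blood cell markers found. The sum of the blood cell markers never exceeded 2.24 FPKM. KRT1, IVL and HBB were not found by name and were not analysed here. At 24 h, 5 of 10 adrenergic markers were lower and 1 higher with CBD, and 3 of 5 tested mesenchymal markers were higher and 1 lower. Of all genes tested, 20.8% were higher and 21.3% lower at that time. The part of these markers in the values below was not tested. In bulk RNA a smaller share of cells of 1 kind and less RNA per cell cannot be told apart.

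The question of how CBD changed these transcripts over time was addressed by comparing CBD with vehicle at each time. With CBD, DUSP6, SPRY4, ETV4 and ETV5 stood highest above vehicle of the same time, at 1.68 to 2.23 times its mean at 24 h. Smaller differences above vehicle passed the test for SPRY2 at 6, 12 and 24 h and for SPRED1 at 12 and 24 h. DUSP5 passed the test at 24 h only, DUSP4 at 3 and 6 h only, and SPRED2 at no time. From 3 to 24 h the SPRED1 mean moved little with CBD (6.30 to 6.36 FPKM) and fell with vehicle (6.65 to 5.34). That of DUSP5 fell with CBD (1.87 to 1.67 FPKM) as with vehicle (1.64 to 1.37). By limma with Benjamini-Hochberg adjustment (adjusted p under 0.01), 4 of the 9 tested members were higher at 3 h, where 1.18% of all genes tested were, 6 at 6 h (4.07%), 6 at 12 h (8.85%) and 7 at 24 h (20.8%), and none was lower, where 1.28%, 6.13%, 11.2% and 21.3% of all genes were. The median log2 fold change of the 9 members was 0.15, 0.17, 0.23 and 0.22 at 3, 6, 12 and 24 h, and that of all genes was between -0.00 and 0.01. DUSP6, SPRY4 and ETV5 were higher at all 4 times, as were 51 genes (0.404%). The moderated F-test over the 4 times called 8 of 9 members, all but SPRED2 (adjusted p = 0.337), with 47.2% of all genes called, and it ranked SPRY4, ETV5, DUSP6 and ETV4 at places 19, 24, 37 and 50 of 12621. The members were chosen with earlier results of these data known. These counts and places describe them and are no test of the group.

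**Figure D1:**
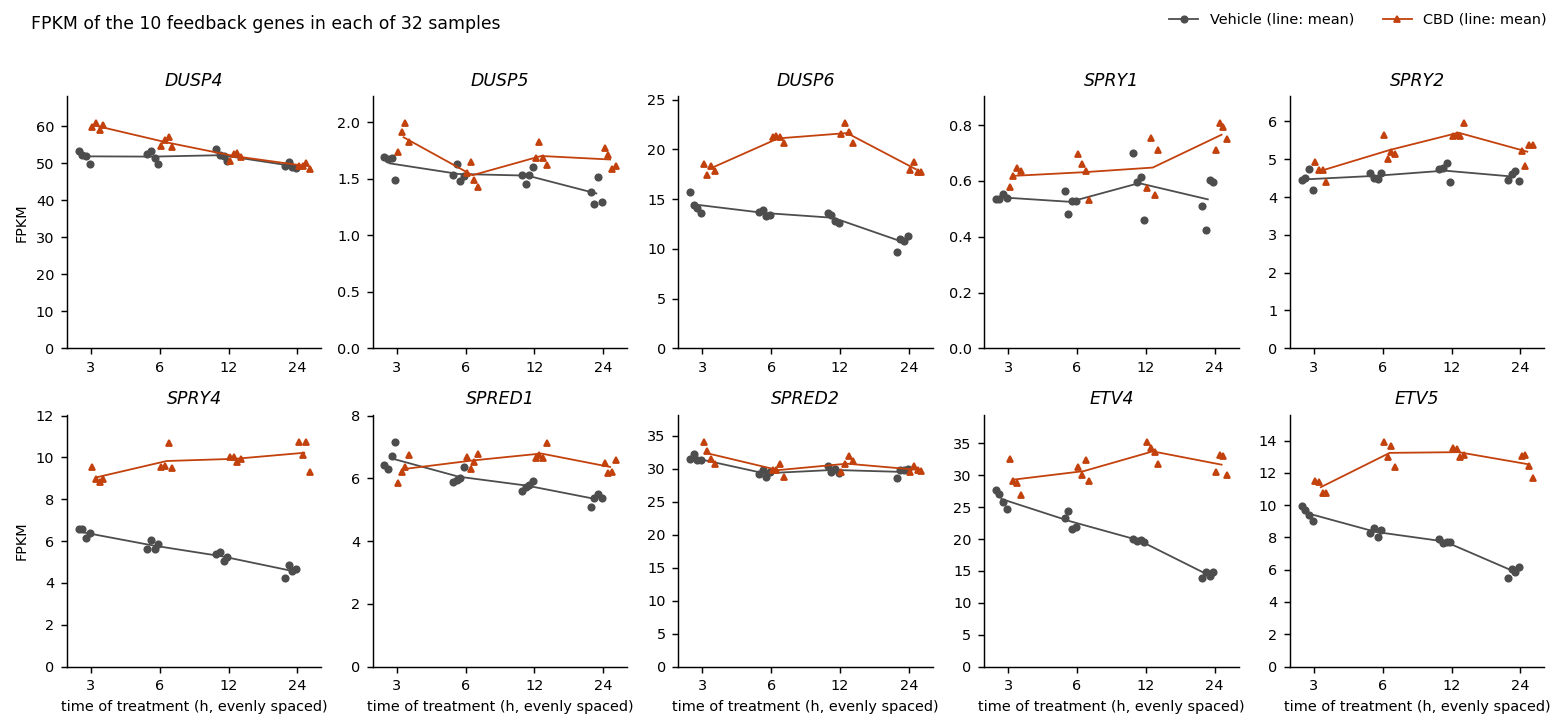
FPKM (vertical axes, each from 0) of the 10 genes by time of treatment in h, with each of 32 samples as a point (circles vehicle, triangles CBD) and lines through the means of 4 replicates. Vehicle values of ETV4, ETV5, SPRY4 and DUSP6 fell with time, whereas CBD means at 24 h were 18.0 FPKM for DUSP6, 31.7 for ETV4, 10.2 for SPRY4 and 12.5 for ETV5, and the 2 treatments of SPRED2 overlapped.

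The counts at the early times depended on which samples set the spread. When only the 8 samples of 3 h were fitted, SPRY4 alone of the members was called (adjusted p = 0.00160), and the calls of DUSP4 (adjusted p = 0.0108), DUSP6 (0.0283) and ETV5 (0.0555) were lost, with 29 genes called in all. At 6 h the same fit lost DUSP4 (0.0471) and SPRY2 (0.0217).

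DUSP6 (GRCh37, chr12:89741012-89746278, minus strand, protein coding) encodes an ERK-selective cytoplasmic phosphatase, and its transcript is a widely used reporter of ERK output. At 3 h its level was 15.7, 14.4, 14.1 and 13.6 FPKM in vehicle replicates 1 to 4 and 18.6, 17.4, 18.3 and 17.8 in CBD replicates 1 to 4. At 6 h the values were 13.7, 13.9, 13.3 and 13.4 FPKM with vehicle against 21.2, 21.3, 21.2 and 20.7 with CBD. At 12 h they were 13.6, 13.4, 12.8 and 12.6 against 21.5, 22.6, 21.8 and 20.7. All CBD samples lay above all vehicle samples at these times, and the gap widened between 3 and 6 h. At 24 h the values were 9.72, 11.03, 10.8 and 11.3 FPKM with vehicle and 17.9, 18.7, 17.7 and 17.7 with CBD, again without overlap. The log2 fold changes were 0.30, 0.60, 0.68 and 0.70 (SE 0.04, n = 4 against 4), with adjusted p = 8.94e-06, 3.59e-12, 1.26e-13 and 2.09e-14 by limma. Of the exonic bases of DUSP6, 28.6% overlap a long noncoding RNA gene on the other strand (ENSG00000274021), and 24.7% of its 50-base words also occur in that gene. The methods call the run first-stranded, but whether the FPKM were estimated with strand is not given in the sources used here, so that part of the DUSP6 value may hold reads of that gene.

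DUSP4 (GRCh37, chr8:29190581-29208201, minus strand, protein coding), a nuclear phosphatase, was the most abundant member. At 3 h vehicle replicates had 53.4, 52.3, 52.01 and 49.8 FPKM and CBD replicates 59.8, 60.8, 59.1 and 60.3. At 6 h they had 52.4, 53.5, 51.5 and 49.8 and 54.7, 56.4, 57.1 and 54.4. The groups did not overlap at either time, and the gap at 6 h was smaller. At 12 h the groups overlapped (50.7 to 54.0 FPKM with vehicle, 50.6 to 52.7 with CBD), as they did at 24 h (48.7 to 50.3 and 48.5 to 50.2). The log2 fold changes were 0.21, 0.10, -0.01 and -0.00 (SE 0.02), with adjusted p = 1.05e-06, 0.00203, 0.837 and 0.980. The values at 12 and 24 h took the other sign under quantile normalization (0.01 and 0.02). The call at 6 h was lost without vehicle replicate 4 or without CBD replicate 3 of that time (adjusted p up to 0.0147). The difference between the effects at 24 and 3 h was below 0 (-0.21, SE 0.03, adjusted p = 1.01e-05).

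DUSP5 (GRCh37, chr10:112257665-112271291, plus strand, protein coding), a nuclear phosphatase that also anchors ERK, was expressed at low levels. At 24 h it had 1.39, 1.28, 1.52 and 1.30 FPKM in vehicle and 1.77, 1.71, 1.59 and 1.61 in CBD replicates. The groups did not overlap, and the log2 fold change was 0.17 (SE 0.04, adjusted p = 0.000373). With 0.1 FPKM added it was 0.27 and with 5 it was 0.07, and it stayed called with either. At 3 h the CBD samples (1.74 to 1.99 FPKM) lay above the vehicle samples (1.49 to 1.69), with a log2 fold change of 0.12 that missed the threshold (adjusted p = 0.0486). At 6 h the groups overlapped (log2 fold change -0.01, adjusted p = 0.931), and at 12 h they did not (1.45 to 1.60 with vehicle, 1.62 to 1.82 with CBD, log2 fold change 0.10, adjusted p = 0.0564).

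SPRY4 (GRCh37, chr5:141689992-141706020, minus strand, protein coding) encodes a Sprouty protein that restrains RAS and RAF activation downstream of growth factor receptors. It had the lowest p of the members in the F-test. At 3 h vehicle replicates 1 to 4 had 6.56, 6.55, 6.13 and 6.37 FPKM, and CBD replicates 1 to 4 had 9.53, 8.96, 8.80 and 8.94. At 6 h they had 5.63, 6.05, 5.61 and 5.85 and 9.54, 9.56, 10.7 and 9.51. At 12 h they had 5.36, 5.45, 5.02 and 5.25 and 10.02, 10.01, 9.78 and 9.92. The lowest CBD value at each of these times was above the highest vehicle value at any time, 6.56 FPKM. At 24 h vehicle replicates had 4.23, 4.86, 4.57 and 4.68 FPKM and CBD replicates 10.7, 10.1, 10.8 and 9.28, the widest separation of the 4 times. The log2 fold changes were 0.44, 0.67, 0.80 and 1.01 (SE 0.04), with adjusted p = 2.57e-08, 1.29e-12, 1.28e-14 and 5.18e-17. With 5 added before the logarithm the change at 24 h was 0.67.

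SPRY2 (GRCh37, chr13:80910111-80915261, minus strand, protein coding) acts at the same level of the pathway. At 3 h the groups overlapped (4.20 to 4.73 FPKM with vehicle, 4.41 to 4.93 with CBD, adjusted p = 0.343). At 6 h vehicle replicates had 4.64, 4.50, 4.47 and 4.64 FPKM and CBD replicates 5.64, 4.999, 5.20 and 5.14. At 12 h they had 4.74, 4.78, 4.90 and 4.39 and 5.61, 5.64, 5.61 and 5.95. The groups were apart at both times, as at 24 h (4.42 to 4.69 against 4.83 to 5.39 FPKM). The log2 fold changes at 6, 12 and 24 h were 0.17, 0.23 and 0.16 (SE 0.04), with adjusted p = 0.00132, 1.05e-05 and 0.000373, and with 5 added before the logarithm they were 0.10, 0.14 and 0.10.

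SPRY1 (GRCh37, chr4:124317950-124324915, plus strand, protein coding), the third Sprouty gene measured, was below 1 FPKM in every sample. At 24 h it had 0.511, 0.424, 0.604 and 0.597 FPKM in vehicle and 0.711, 0.807, 0.795 and 0.752 in CBD replicates, without overlap. It also did not overlap at 3 h (0.535 to 0.552 and 0.577 to 0.645), whereas the groups overlapped at 6 and 12 h. In exact two-sided permutation tests with 4 against 4 samples, p was 0.0286, 0.0571, 0.514 and 0.0286 at 3, 6, 12 and 24 h, where 0.0286 is the smallest value that design allows, and after adjustment over the 4 times the values were 0.0571, 0.0762, 0.514 and 0.0571. SPRY1 did not pass the 0.05 threshold at any time. At 3 and 24 h p was already the smallest possible, and the adjustment over the 4 times alone raised it to 0.0571. At those times the test could therefore not decide whether SPRY1 differed. When limma was run with no filter on low FPKM, SPRY1 was called at 24 h (log2 fold change 0.20, adjusted p = 0.000361) and at no other time.

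SPRED1 (GRCh37, chr15:38545037-38649450, plus strand, protein coding) binds neurofibromin and brings it to RAS at the membrane. Its CBD samples were not above vehicle at 3 h (5.87 to 6.75 FPKM against 6.29 to 7.17, log2 fold change -0.07, adjusted p = 0.234). At 12 h vehicle replicates had 5.61, 5.72, 5.80 and 5.93 FPKM and CBD replicates 6.64, 6.75, 6.66 and 7.11. At 24 h they had 5.10, 5.37, 5.50 and 5.38 and 6.49, 6.18, 6.20 and 6.58. The groups were apart at both later times, with log2 fold changes of 0.20 and 0.22 (SE 0.03, adjusted p = 5.05e-05 and 7.57e-06), which were 0.13 and 0.14 with 5 added. At 6 h they overlapped and the change of 0.10 missed the threshold (adjusted p = 0.0383). Of the 50-base words of SPRED1, 1.76% also occur in transcripts of 383 other genes.

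SPRED2 (GRCh37, chr2:65537985-65659771, minus strand, protein coding), the closest relative of SPRED1 among the members, was more abundant (29.5 FPKM against 5.34 for SPRED1 in vehicle at 24 h), and its groups overlapped at every time. At 24 h it had 28.5, 29.8, 29.7 and 29.9 FPKM in vehicle and 29.5, 30.3, 29.8 and 29.6 in CBD replicates. Its log2 fold changes were 0.03, 0.02, 0.04 and 0.02 (SE 0.03), with adjusted p between 0.216 and 0.624, and the sign at 24 h turned under median-ratio scaling (-0.0093).

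ETV4 (GRCh37, chr17:41605212-41656988, minus strand, protein coding) encodes an ETS transcription factor that carries ERK signals to the genome. At 3 h vehicle replicates 1 to 4 had 27.7, 27.1, 25.7 and 24.7 FPKM, and CBD replicates 1 to 4 had 32.5, 29.1, 28.7 and 26.95. The groups overlapped, and the log2 fold change of 0.15 missed the threshold (adjusted p = 0.0536). At 6 h the values were 23.3, 24.4, 21.6 and 21.9 FPKM with vehicle and 31.2, 30, 32.3 and 29.1 with CBD. At 12 h they were 20.1, 19.8, 19.9 and 19.5 and 35.3, 34.3, 33.6 and 31.8. At 24 h they were 13.9, 14.8, 14.1 and 14.8 and 30.6, 33.1, 32.9 and 29.99. The groups were apart at 6, 12 and 24 h, and the vehicle mean fell at each step, whereas the lowest CBD value at any time was 26.95 FPKM. The log2 fold changes at 6, 12 and 24 h were 0.41, 0.74 and 1.08 (SE 0.05), with adjusted p = 4.79e-07, 3.91e-12 and 5.04e-16.

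ETV5 (GRCh37, chr3:185764103-185828107, minus strand, protein coding) encodes a close relative of ETV4. At 3 h vehicle replicates 1 to 4 had 9.94, 9.67, 9.36 and 9.04 FPKM, and CBD replicates 1 to 4 had 11.5, 11.4, 10.7 and 10.7. At 6 h the values were 8.27, 8.58, 8.05 and 8.44 with vehicle and 13.9, 12.99, 13.7 and 12.3 with CBD. At 12 h they were 7.91, 7.64, 7.69 and 7.73 and 13.5, 13.5, 13.01 and 13.1. The groups did not overlap at any of these times, and CBD values rose between 3 and 6 h. At 24 h the values were 5.51, 6.06, 5.85 and 6.19 with vehicle and 13.04, 13.1, 12.4 and 11.7 with CBD, again apart. The log2 fold changes were 0.21, 0.61, 0.71 and 0.97 (SE 0.04), with adjusted p = 0.000860, 1.91e-12, 3.78e-14 and 1.94e-17. ETV4 shares 68 exonic bases with DHX8 on the other strand (1.93% of its exonic bases), which was listed at 26.6 FPKM on average. ETV5 shares 164 (2.84%) with DGKG on the same strand, which was listed at 0.113 FPKM on average.

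**Figure D2:**
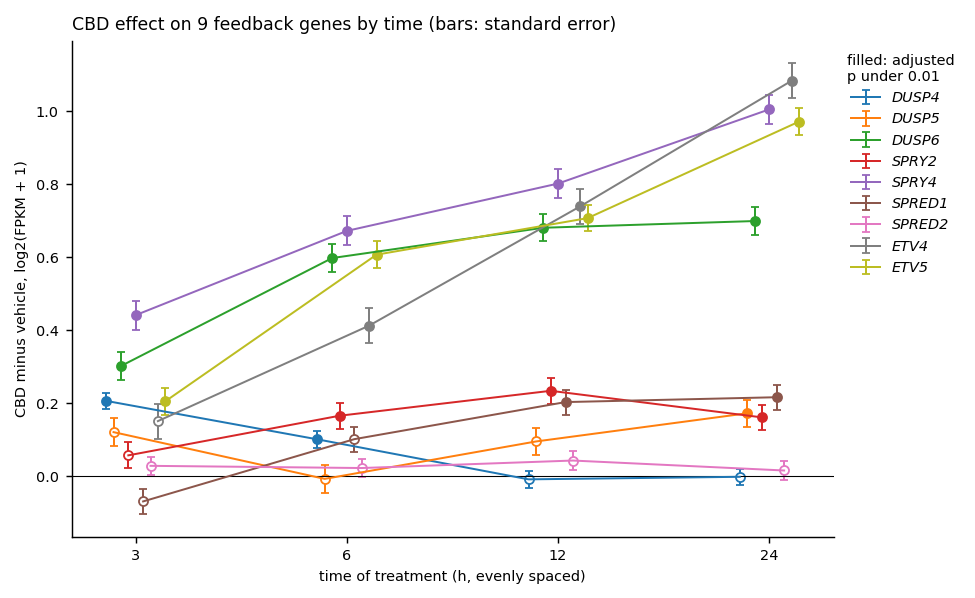
Difference between CBD and vehicle in mean log2(FPKM + 1) (vertical axis, bars give the standard error) for the 9 tested genes by time in h, 4 against 4 samples at each point, with filled points at an adjusted p under 0.01. SPRY4, ETV4, ETV5 and DUSP6 climbed to between 0.70 and 1.08 at 24 h, while DUSP4 went from 0.21 at 3 h to -0.00 at 24 h.

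Without any test, the CBD samples of 6, 6, 7 and 8 of the 10 members lay wholly above the vehicle samples at 3, 6, 12 and 24 h, where 5.52%, 8.46%, 13.4% and 25.1% of all genes tested did. None lay wholly below, where 4.36%, 11.1%, 16.9% and 25.9% did. SPRY1, which is under the filter, is counted among the members and lay wholly above at 3 and 24 h. The shares cover only genes that passed the filter.

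Because FPKM is scaled for length, levels can be set beside each other within a sample. In vehicle at 3 h the order of mean FPKM was DUSP4 (51.9), SPRED2 (31.6), ETV4 (26.3), DUSP6 (14.4), ETV5 (9.50), SPRED1 (6.65), SPRY4 (6.41), SPRY2 (4.47), DUSP5 (1.64) and SPRY1 (0.541). The ranges of the neighbours SPRED1 and SPRY4 overlapped there, and those of all other neighbours did not. In CBD samples at 24 h, ETV4 (31.7) and SPRED2 (29.8) overlapped in range, and SPRY4 (10.2) had passed SPRED1 (6.36). In vehicle at 24 h, ETV4 (14.4) was below SPRED2 (29.5), and SPRY4 (4.59) overlapped SPRY2 (4.54).

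The levels of most members fell with time in vehicle samples. From 3 to 24 h in vehicle, 8 of the 9 members were lower, where 31.1% of all genes tested were, and none was higher (26.6%). SPRY2 did not pass (0.02, adjusted p = 0.659). The mean of ETV4 fell by 45.2%, from 26.3 to 14.4 FPKM, that of ETV5 fell by 37.9%, that of SPRY4 fell by 28.4% and that of DUSP6 fell by 25.8%. The log2 changes were -0.82 (SE 0.05, adjusted p = 6.93e-14) for ETV4, -0.61 (SE 0.04, 1.43e-13) for ETV5, -0.41 (SE 0.04, 1.18e-09) for SPRY4 and -0.40 (SE 0.04, 5.89e-10) for DUSP6. SPRED1 (-0.27), DUSP5 (-0.15), SPRED2 (-0.09) and DUSP4 (-0.07, adjusted p = 0.00793) were lower by less. Under quantile normalization the calls of SPRED2 (-0.03) and DUSP4 were lost, and DUSP4 changed sign (0.03). The call of DUSP4 was also lost with relative depth as a term and without any of 6 samples left out in turn (adjusted p up to 0.0402), and that of SPRED2 without vehicle replicate 1 of 24 h (0.0124).

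In CBD samples over the same interval the means of DUSP6 (18.0 FPKM at 3 and at 24 h) and SPRED1 (6.30 and 6.36) moved little, with log2 changes of -0.0021 (adjusted p = 0.972) and 0.01 (0.727), both of which took the other sign under quantile normalization. SPRY4 (0.16, adjusted p = 0.000971), ETV5 (0.16, 0.000324) and SPRY2 (0.12, 0.00281) were higher at 24 than at 3 h, where 32.1% of all genes tested were. ETV4 had 29.3 FPKM at 3 h and 31.7 at 24 h (0.11, adjusted p = 0.0451). DUSP4 (-0.28, adjusted p = 1.58e-11) and SPRED2 (-0.11, 0.000474) were lower, where 35.7% were. DUSP5 missed the threshold (-0.10, adjusted p = 0.0166), but was called lower with median-ratio scaling (adjusted p = 0.00162), quantile normalization, relative depth as a term or without CBD replicate 1 of 3 h. ETV4 was called higher with quantile normalization (adjusted p = 0.000399) or without that same sample (0.00342). The small changes of SPRY2 (highest adjusted p over the alternatives 0.338), SPRED2 (0.677), SPRY4 (0.0190) and ETV5 (0.0107) lost their calls under median-ratio scaling or quantile normalization, and that of SPRY2 was also lost without CBD replicate 4 of 3 h or CBD replicate 3 or 4 of 24 h (adjusted p up to 0.0180). With median-ratio scaling 0 members were called higher and 3 lower, in place of 3 and 2, and the median of all genes was -0.06. This comparison was added after the data were seen.

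**Figure D3:**
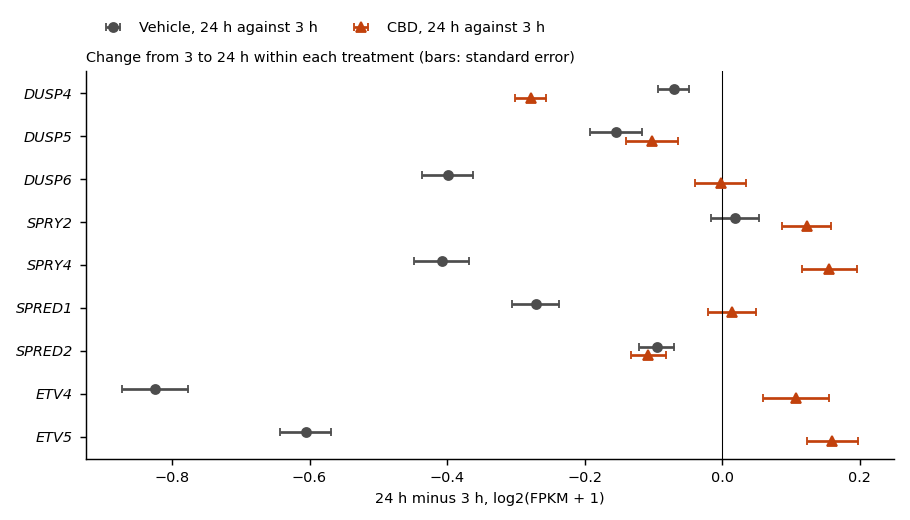
Change in mean log2(FPKM + 1) from 3 to 24 h (horizontal axis, bars give the standard error) within vehicle (circles) and within CBD (triangles) for the 9 tested genes, 4 against 4 samples in each. ETV4, ETV5, SPRY4 and DUSP6 moved by -0.82 to -0.40 with vehicle and by -0.0021 to 0.16 with CBD, and the 2 values of SPRED2 lay together.

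The test of the CBD effect at 24 h minus that at 3 h called 5 members above 0, where 12.9% of all genes tested were, and DUSP4 below 0, where 14.3% were. It compares means of the same 16 samples, with the spread taken from all 32 samples. The differences on the log2 scale were 0.93 for ETV4 (SE 0.07, adjusted p = 3.86e-11), 0.77 for ETV5 (SE 0.05, 1.02e-11), 0.56 for SPRY4 (SE 0.06, 1.15e-08), 0.40 for DUSP6 (SE 0.05, 1.36e-06) and 0.29 for SPRED1 (adjusted p = 4.07e-05). With 5 added before the logarithm, that of SPRY4 was 0.36 and that of SPRED1 0.18. DUSP5 (0.05, adjusted p = 0.475), SPRY2 (0.10, 0.101) and SPRED2 (-0.01, 0.814) did not pass.

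The other genes of the pathway were read from 4 lists. Each count below stands beside the share over all genes tested. That share was 1.18%, 4.07%, 8.85% and 20.8% higher, and 1.28%, 6.13%, 11.2% and 21.3% lower, at 3, 6, 12 and 24 h. Transcripts of the RAS-ERK cascade itself changed by at most 0.25 in log2(FPKM + 1). That largest change, of NF1 at 24 h, ran from 0.12 to 0.32 over the alternatives. Of the 22 genes of the cascade 21 were tested. None was higher and 1 lower at 3 h and at 6 h, none higher and 2 lower at 12 h, and 6 higher and 7 lower at 24 h, with a median log2 fold change between -0.02 and -0.00 at the 4 times. The gene lower at all 4 times was GAB1, a docking protein of receptor tyrosine kinases (log2 fold changes -0.14, -0.16, -0.18 and -0.17, with 5.36 FPKM in vehicle and 4.66 in CBD at 24 h), although its calls at 3 and 6 h were lost when only those times were fitted (adjusted p = 0.0511 and 0.0154). At 24 h GRB2, an adaptor (40.9 FPKM in vehicle, 35.4 in CBD, log2 fold change -0.20), and HRAS (-0.20, a call lost with only 24 h fitted, adjusted p = 0.0111) were also lower. NF1, which encodes the RAS-inactivating protein neurofibromin (2.60 and 3.28 FPKM, 0.25), BRAF (0.20) and RASA2 (0.18), another RAS GTPase-activating protein, were higher at that time.

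Receptor tyrosine kinases went both ways. Of 18, 12 were tested, and 0, 2, 4 and 6 were higher and 0, 1, 2 and 2 lower at 3, 6, 12 and 24 h, with medians of -0.04, 0.03, 0.04 and 0.11. RET, the receptor for glial cell line-derived neurotrophic factors, had 3.97 FPKM in vehicle and 10.4 in CBD at 24 h, with log2 fold changes of 0.46, 0.81 and 1.20 (SE 0.04) at 6, 12 and 24 h. FGFR4 (4.47 and 7.76 FPKM at 24 h, 0.68) and IGF1R (9.19 and 12.9, 0.44) were higher as well. ALK, a receptor that is a known driver in neuroblastoma (17.1 and 12.8 FPKM, -0.39), and KIT (9.34 and 6.84, -0.40) were lower.

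Among ERK-responsive target genes, 9 of 16 were tested, and 2, 2, 5 and 6 were higher and 0, 1, 1 and 1 lower at the 4 times, with medians of 0.10, 0.11, 0.26 and 0.20. EGR1, an immediate-early transcription factor, was higher at all 4 times (3.40 and 5.83 FPKM at 3 h, 2.35 and 5.01 at 24 h, log2 fold changes 0.62, 0.52, 0.70 and 0.84, SE 0.09). Its calls at 3 and 6 h were lost when only those times were fitted (adjusted p = 0.0714 and 0.0176). EPHA2, an ephrin receptor (4.85 and 7.13 FPKM at 24 h, 0.47), and JUNB, an AP-1 subunit (15.8 and 20.2, 0.33), were higher, whereas CCND1, which encodes cyclin D1, was lower (181 and 131 FPKM at 24 h, -0.46). The 7 genes under the filter included FOS and EGR2 to EGR4.

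Of 12 related phosphatases and feedback genes outside the members, 9 were tested, and 0, 0, 2 and 4 were higher and 0, 3, 3 and 1 lower at 3, 6, 12 and 24 h, with medians of -0.02, -0.13, 0.03 and 0.07. DUSP8, DUSP10 and DUSP16, phosphatases that act mainly on the stress kinases JNK and p38, were lower at 6 h (log2 fold changes -0.41, -0.41 and -0.24), with 6.00 and 4.28 FPKM in vehicle and CBD for DUSP8, 2.12 and 1.36 for DUSP10 and 25.5 and 21.4 for DUSP16. LRIG1 (0.23), ETV1, the third gene of the PEA3 group (0.20), and IL17RD (0.19), a receptor-like inhibitor of fibroblast growth factor signalling, were higher at 24 h.

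**Figure D4:**
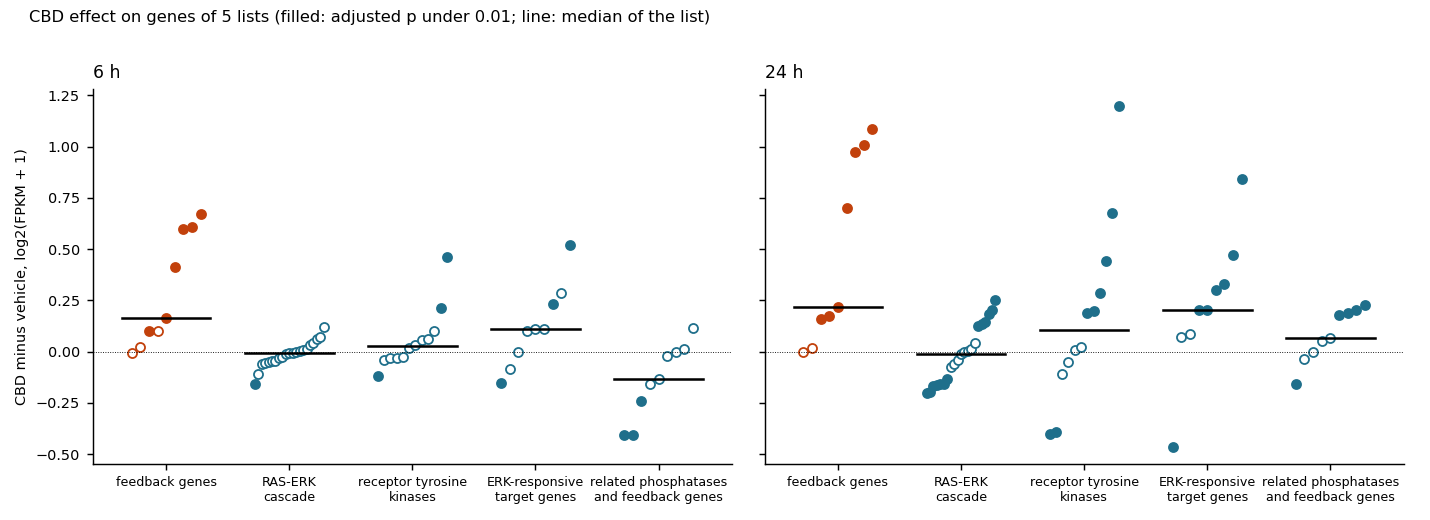
Difference between CBD and vehicle in mean log2(FPKM + 1) (vertical axis) for each tested gene of the 10 feedback genes and of the 4 other lists at 6 h (left) and 24 h (right), filled where the adjusted p was under 0.01, with a line at each list's median. At 6 h the median was 0.17 for the feedback genes and -0.13 for the related phosphatases and feedback genes.

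Across the 8 group means of log2(FPKM + 1), Pearson's r between the 4 members highest above vehicle from 6 h on ran from 0.937 (SPRY4 and ETV4) and 0.940 (DUSP6 and ETV4) to 0.980 (DUSP6 and ETV5). SPRED1, with a smaller difference from vehicle, had an r of 0.936 with ETV4. SPRED2 had an r between -0.05 and 0.79 with the others. Among 12612 genes outside the members, those most like SPRY4 were GPR3, an orphan G protein-coupled receptor (r = 0.994), GCLC, the catalytic subunit of the enzyme that starts glutathione synthesis (0.986), SPRYD7, which is not a Sprouty gene despite its symbol (0.985), MYCNOS, the antisense gene at MYCN (0.984), and GARS, the glycyl-tRNA synthetase (0.980). GPR3 had 1.29 and 1.77 FPKM in vehicle and CBD at 3 h and 0.870 and 2.01 at 24 h. GCLC, GPR3, MYCNOS and GARS were called higher at all 4 times, and SPRYD7 at none (adjusted p at 24 h 0.0139), its changes being 0.03 to 0.10 on the log2 scale. Whether reads of MYCNOS and MYCN were separated by strand when the FPKM were estimated is not given in the sources used here. These values describe 8 group means that share their libraries and are given without a test.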

How the data were processed

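PolyA RNA of 32 SK-N-BE(2) samples was sequenced as single reads of 50 bases. The labels name a Nugen library protocol and the methods a TruSEQ protocol. According to the labels and methods, the authors trimmed reads with Trimmomatic version 0.36, aligned them to hg19 with TopHat (TopHat2 version 2.2.1 in the submitters' processing notes) and obtained an FPKM value for each gene and sample from Cufflinks. The deposited FPKM carry no read counts, so that depth is known only as ratios between samples. A deposited Cuffdiff table holds the authors' own fold changes and q-values and was not used.

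After taking log2(FPKM + 1), the 12621 of 22610 genes averaging 1 FPKM or more entered a model of 8 group means in limma (version 3.58.1, under R version 4.3.3; eBayes with an intensity trend). Fold changes on this scale understate the change of low genes. P-values of each comparison were adjusted by Benjamini-Hochberg over all these genes, with 0.01 as the threshold. SPRY1 was tested with exact permutation tests (scipy version 1.17.1, Python version 3.11.15). The scripts were tested on simulated data. Gene positions are from GENCODE on GRCh37 (hg19). RefSeq windows are on GRCh38.p14, and no coordinates were converted between builds.

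The members and lists were chosen with earlier results of these data known. All members were named, with up to 3 called genes of largest rise and of largest fall per list and the 5 genes most like the member of largest F. For samples with the same replicate number, the correlation of deviations was -0.0757 to 0.0935 within times. Over all pairs of groups it was -0.130 to 0.138, with a mean of 0.000819. With a replicate block, 447 of all genes were called at 3 h in place of 310, and 6488 by the F-test in place of 5962. Whether the numbers mark a shared source of spread was not tested. Alternatives were 0.1 or 5 added, no filter or a filter at 5 FPKM, quantile normalization, median-ratio scaling, only the times compared, a replicate block, relative depth as a term, eBayes with no intensity trend, and each sample left out.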

Additional observations from a re-analysis of the deposited data

Results flagged for a closer look

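Among the 80 groups of 4 samples (10 genes by 8 groups), 5 held a sample far from the other 3 of its group, where chance gives about 1 in 20, or 4. DUSP5 in vehicle replicate 4 at 3 h had 1.49 FPKM (others 1.68 to 1.69). DUSP6 in CBD replicate 4 at 6 h had 20.7 FPKM (others 21.2 to 21.3). SPRY2 in CBD replicate 4 at 12 h had 5.95 FPKM (others 5.61 to 5.64). SPRY4 in CBD replicate 3 at 6 h had 10.7 FPKM (others 9.51 to 9.56). SPRED2 in vehicle replicate 1 at 24 h had 28.5 FPKM (others 29.7 to 29.9).

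The CBD effect differed between 24 and 3 h, by limma's test of that difference, for 6 members. The differences on the log2 scale were 0.93 for ETV4, 0.77 for ETV5, 0.56 for SPRY4, 0.40 for DUSP6, 0.29 for SPRED1 and -0.21 for DUSP4.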

How the results depend on the processing

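The number of members called was within 1.5 times of that reported in all comparisons and settings with the following exceptions. With only the times compared, 1 member was called at 3 h in place of 4. With median-ratio scaling, 3 were called (0 higher, 3 lower) in place of 5 (3 higher, 2 lower) between CBD at 24 h and at 3 h. Leaving out each sample in turn, 4 to 4 were called at 3 h, 5 to 6 at 6 h, 6 to 6 at 12 h, 7 to 7 at 24 h, 6 to 6 for the difference between 24 and 3 h, 6 to 8 in vehicle and 4 to 7 in CBD at 24 h against 3 h, and 8 to 8 in the F-test, and SPRY1 passed at 0 to 3 times (3 without CBD replicate 4 of 6 h). That sample held the only SPRY1 value of CBD at 6 h within the vehicle range of that time. With the replicate block, 4, 7, 6 and 7 members were called at 3, 6, 12 and 24 h, the added call being SPRED1 at 6 h (adjusted p = 0.00352). The numbers are not known to pair samples.

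Among the members, changes of sign were limited to uncalled values near 0 and to the vehicle change of DUSP4. With quantile normalization they were, on the log2 scale, DUSP4 at 12 h (0.0097), at 24 h (0.022) and in vehicle at 24 h against 3 h (0.026), SPRED1 (-0.049) and DUSP6 (0.048) in CBD at 24 h against 3 h, SPRY2 in vehicle (-0.045) and the difference between 24 and 3 h of SPRED2 (0.014). With median-ratio scaling they were SPRED1 in CBD (-0.034), SPRED2 at 24 h (-0.0093) and SPRY2 in vehicle (-0.0060). With relative depth as a term they were DUSP5 at 6 h (0.0076) and DUSP6 in CBD (0.0017). Leaving out each sample in turn, the values ran from -0.022 to 0.0078 for DUSP4 at 12 h, -0.0096 to 0.0079 for DUSP4 at 24 h, -0.029 to 0.013 for DUSP5 at 6 h, -0.019 to 0.011 for DUSP6 and -0.015 to 0.044 for SPRED1 in CBD, -0.034 to 0.013 for the difference of SPRED2 and -0.0056 to 0.042 for SPRY2 in vehicle. The causes were not tested. The FPKM carry no read counts, so that the counting error of the members is unknown.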
